A study of Zea mays with 9 samples.

Results

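The genes described here are 66 maize genes whose transcript level was about the same with and without nitrate and was at least 4-fold lower when nitrate was given together with cPTIO, a compound that reacts with nitric oxide (NO) and removes it. They were chosen on the values themselves. A gene with a Zm00001d identifier was eligible when its +NO3- and -N values lay within 1.5-fold of each other and the smaller of both values was an RPKM (reads per kilobase of transcript, scaled to the number of mapped reads) of at least 5, and it was taken when its value in +NO3- + cPTIO was at most 25% of that smaller value. Of 45260 genes in the table, 13255 were eligible, and the 66 genes are 0.498% of these. The selection used all 3 conditions, so the differences between them are given below as a description and carry no test.

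Polyadenylated RNA was sequenced from seedlings of the inbred line B73 that had grown for 24 h in 1 of 3 solutions, after 3 days of germination and a period without nitrogen that all of them shared. The +NO3- + cPTIO seedlings had 1 mM nitrate and 1 mM cPTIO, the +NO3- seedlings had 1 mM nitrate, and the -N seedlings had no nitrogen source by the study's methods, although the treatment text common to all labels also lists 1 mM ammonium chloride. No solution held cPTIO without nitrate, so the compound was seen against a single nitrogen supply. Pooled primary root apices of each solution gave 3 libraries, and the methods of the study state that the +NO3- + cPTIO values come from only 2 of them. The labels mark the +NO3- and -N libraries as re-analysed from an earlier deposit and the +NO3- + cPTIO libraries as not, so an effect of cPTIO and a difference between these deposits cannot be told apart. The table has 1 pooled RPKM per gene and condition. No spread between libraries and no depth per library can be read from it, and no value below has an error or a replicate check. The paper itself reports pairwise tests, with a false discovery rate, of +NO3- + cPTIO against +NO3- and against -N. It sets apart genes that seemed to respond to cPTIO but not to nitrate, and does not consider them further. Those test results were not used here, and whether the genes described here passed them was not examined.

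NO is a short-lived gas that plant roots can form from nitrite through nitrate reductase, and it acts on proteins by modifying cysteine thiols and by binding iron in haem groups. In roots it is known as a signal in elongation, root hair formation and lateral root initiation. Nitrate is at once a nutrient and a signal that switches many root genes on or off, and the genes described here are outside that response as far as the window of the rule can tell. The identifiers of the 66 genes carry no names in the table, 0 of the 66 were found in the RefSeq table of maize genes (assembly Zm-B73-REFERENCE-NAM-5.0), and no text or table of the study read here names them. The genes are therefore described by identifier, level and position on the AGPv4 assembly.

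The 66 genes stood at a median RPKM of 2.28 in +NO3- + cPTIO, against 15.3 in +NO3- and 15.2 in -N. Their summed RPKM was 505 in +NO3- + cPTIO, 3436 in +NO3- and 3618 in -N, while the sum over the whole table was 773454, 915808 and 885720 in the same order of conditions. For the 64 genes above 0 with the scavenger, the median log2 ratio of +NO3- + cPTIO to +NO3- was -2.72, with quartiles of -3.40 and -2.38, and that to -N was -2.71, with quartiles of -3.29 and -2.35. Over all eligible genes above 0 both medians were -0.05. The comparisons share the +NO3- + cPTIO value, so they are not separate observations. With the scavenger 17 of the 66 genes stood under an RPKM of 1, 33 stood between 1 and 10, and 16 kept an RPKM of 10 or more. In bulk tissue of this kind, fewer cells of a type that expresses a gene and less RNA per cell cannot be told apart.

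**Figure D1:**
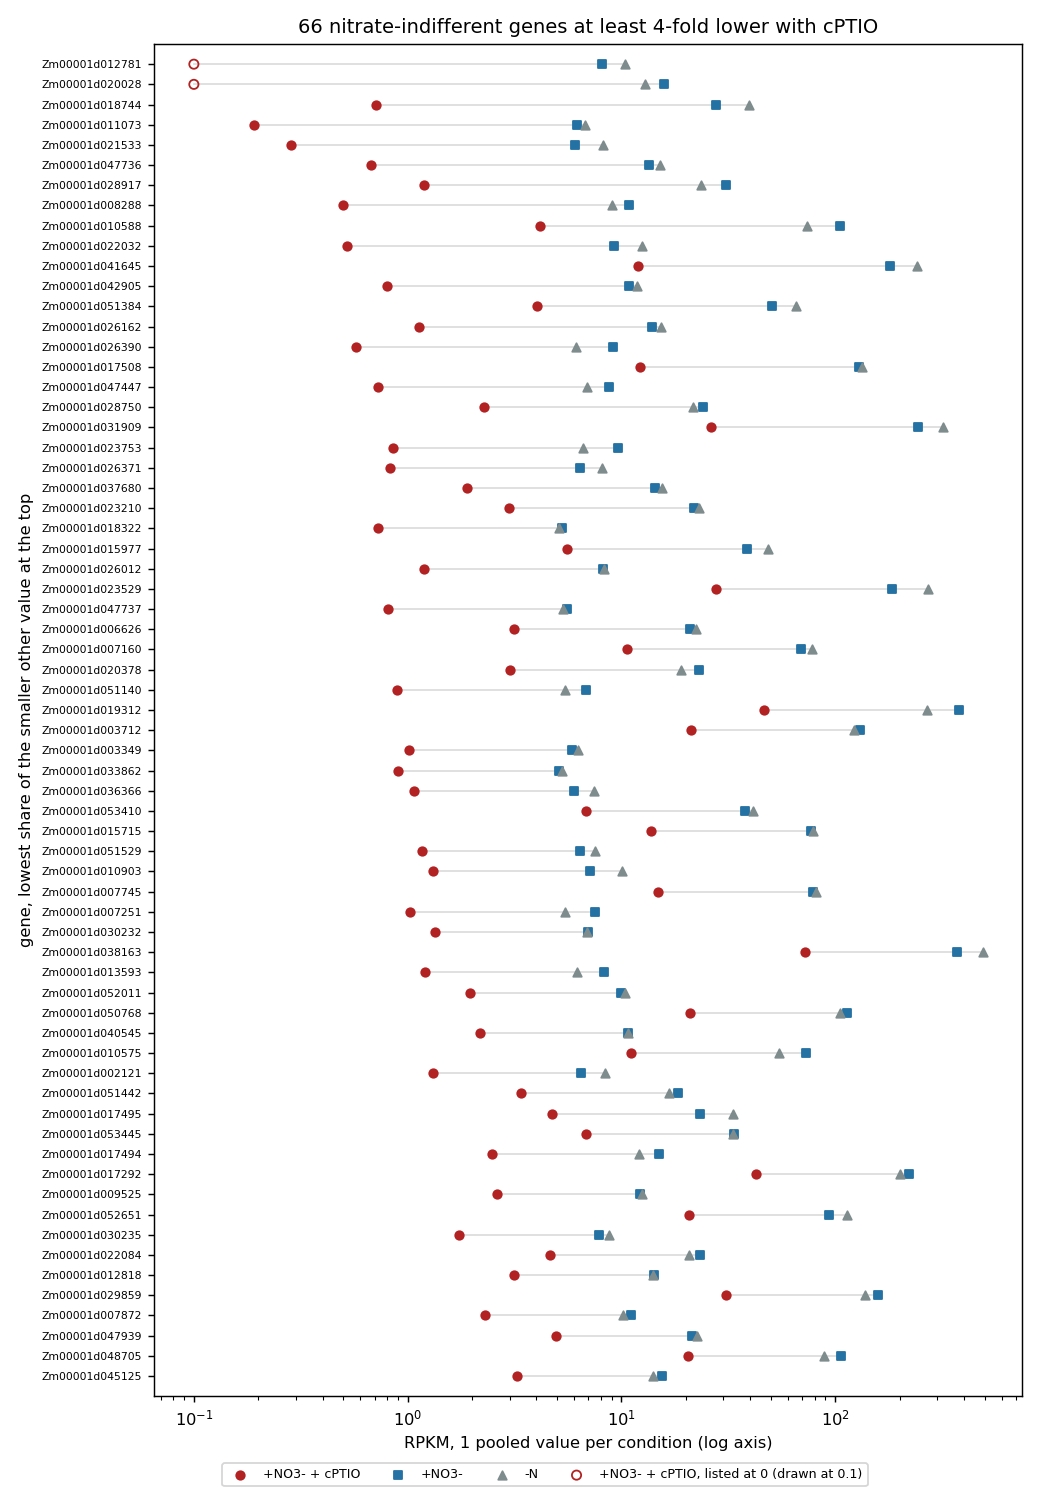
RPKM of each of the 66 genes (rows, ordered by the share of the smaller other value that remained in +NO3- + cPTIO) on a log axis, with circles for +NO3- + cPTIO, squares for +NO3- and triangles for -N. Squares and triangles lie close together in each row by the rule, the circles lie to their left, and the 2 open circles are genes listed at 0 in +NO3- + cPTIO, drawn at 0.1.

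Within the allowed window the genes had no common direction with nitrate. The ratio of +NO3- to -N was above 1 for 29 of them and below 1 for 37, with a median log2 ratio of -0.04, and over the eligible genes 6687 were higher and 6568 were lower in +NO3-. The log2 ratio with nitrate spanned -0.56 to 0.57, which the rule bounds. Several genes were almost the same in both solutions. Zm00001d040545 had an RPKM of 2.17 in +NO3- + cPTIO, against 10.7 in +NO3- and 10.7 in -N, and Zm00001d053445 had 6.80 in +NO3- + cPTIO, against 33.5 in +NO3- and 33.3 in -N. At the edges of the window, Zm00001d026390 had 0.571 in +NO3- + cPTIO, 9.13 in +NO3- and 6.15 in -N, and Zm00001d023529 had 27.8, 185 and 272. These last genes are indifferent to nitrate only by the width of the window.

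The same limits were applied with each condition in turn as the odd one. In +NO3- + cPTIO, 66 genes were at most 25% of both other values and 37 genes (0.279% of 13255) were at least 4 times both. For +NO3- as the odd condition, 4 of 10703 genes were lower (0.0374%) and 1 was higher (0.00934%). For -N, 8 of 10451 genes were lower (0.0765%) and 2 were higher (0.0191%). The +NO3- + cPTIO column thus stood apart for more genes than either of the others, in both directions, and it is also the column of the newer deposit and of fewer libraries. The part of these in the counts was not tested.

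**Figure D2:**
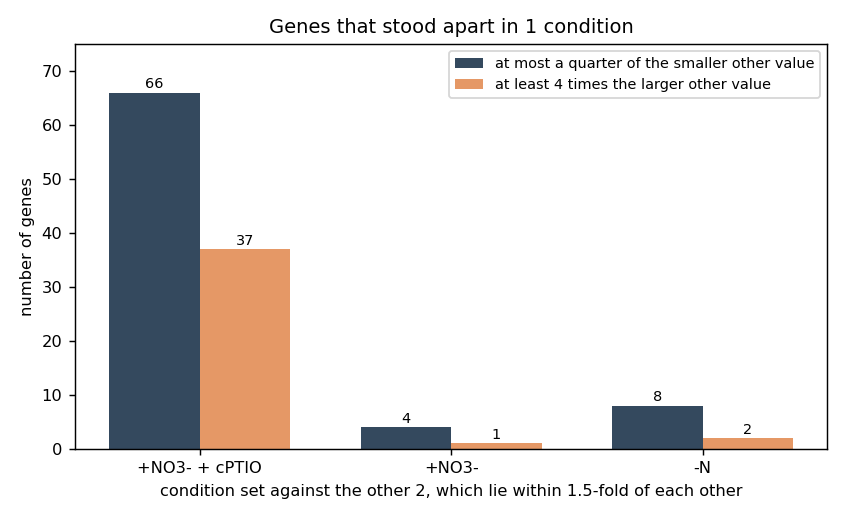
Number of genes at least 4-fold lower or at least 4-fold higher in 1 condition than in both others, where the others lay within 1.5-fold of each other and the smaller of them was at least 5 RPKM. The bars reach 66 and 37 genes for +NO3- + cPTIO, 4 and 1 for +NO3-, and 8 and 2 for -N.

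The genes are taken here from the lowest share that remained to the highest. Listed at 0 in +NO3- + cPTIO were 2 genes. Zm00001d012781 (chromosome 8, 180816377 to 180816664) had an RPKM of 8.11 in +NO3- and 10.4 in -N, and Zm00001d020028 (chromosome 7, 87036253 to 87036378) had 15.8 in +NO3- and 12.9 in -N. Both loci are short, at 288 and 126 bp, and a locus of such length gathers few reads at a given RPKM. The product of RPKM and locus span in kb (called RPM here) is an upper limit to the reads behind a value, on the normalized scale of the RPKM. In the smaller of +NO3- and -N it was 2.33 for Zm00001d012781 and 1.62 for Zm00001d020028. A listed 0 is therefore not a measured absence, and no ratio is given for these genes.

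Among the genes above 0, Zm00001d018744 (chromosome 7, 3974297 to 3974569) was the lowest relative to the other conditions, with an RPKM of 0.711 in +NO3- + cPTIO, against 27.8 in +NO3- and 39.7 in -N, a value 39.1-fold below the smaller of these. Zm00001d011073 on chromosome 8 followed at 32.1-fold, with 0.192 against 6.18 in +NO3- and 6.78 in -N. Zm00001d021533 on chromosome 7 was 21.2-fold lower, with 0.286 against 6.08 and 8.23. All 3 stood under 1 RPKM with the scavenger, where a ratio depends on small values. With a pseudocount of 1 RPKM the share of the smaller value became 5.94% for Zm00001d018744, 16.6% for Zm00001d011073 and 18.2% for Zm00001d021533, against 2.56%, 3.11% and 4.71% without it.

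Zm00001d047736 on chromosome 9 had 0.675 in +NO3- + cPTIO, 13.5 in +NO3- and 15.1 in -N, a 20.0-fold difference from the smaller value. Zm00001d028917 on chromosome 1 had 1.19, against 30.8 in +NO3- and 23.6 in -N, and Zm00001d008288 on chromosome 8 had 0.497, against 10.8 and 9.02. Zm00001d022032 on chromosome 7 had 0.520, against 9.18 in +NO3- and 12.5 in -N. A more abundant gene of the same rank was Zm00001d010588 (chromosome 8, 121126170 to 121128814), with 4.14 in +NO3- + cPTIO, 105 in +NO3- and 73.7 in -N, 17.8-fold below the smaller value, or 6.87% of it with a pseudocount of 1 RPKM. Its locus spans 2645 bp, and the upper limit for its value in -N was 195 RPM. Altogether 10 of the 66 genes were over 16-fold lower or listed at 0, and 19 were over 8-fold lower or listed at 0.

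The next genes by the remaining share lay between 9.54-fold and 15.0-fold below the smaller value. Zm00001d041645 on chromosome 3 had 12.0 in +NO3- + cPTIO, against 180 in +NO3- and 240 in -N, and Zm00001d051384 on chromosome 4 had 4.03, against 50.8 and 65.4. Zm00001d017508 on chromosome 5 had 12.2, against 129 in +NO3- and 134 in -N. Less abundant were Zm00001d026162 on chromosome 10, with 1.13, against 13.9 in +NO3- and 15.3 in -N, Zm00001d026390 (given above) and Zm00001d047447 on chromosome 9, with 0.725, against 8.78 and 6.92. Zm00001d042905 on chromosome 3 had 0.803, against 10.9 in +NO3- and 11.8 in -N, and the table gives it the same locus as zma-MIR397a, a precursor of miR397, a microRNA known from Arabidopsis and rice to target laccase transcripts. The precursor is listed at 0 in +NO3- + cPTIO, at 4.46 RPKM in +NO3- and at 0 in -N, and no ratio is drawn from a value listed at 0.

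The remaining genes were 4.30-fold to 9.51-fold below the smaller value, and 18 of the 66 lay within 5-fold. Just inside the limit stood Zm00001d045125 and Zm00001d048705, both at 23.2% of the smaller value, Zm00001d047939 at 23.0%, Zm00001d007872 at 22.5% and Zm00001d029859 at 22.4%. Just outside it were Zm00001d046834 at 25.4%, Zm00001d047113 at 25.5%, Zm00001d024906 and Zm00001d025873 at 25.6%, and Zm00001d047573 at 25.7%. The values run on across the limit, and 535 eligible genes (4.04%) were at least 2-fold below both other conditions (825, or 6.22%, were at least 2-fold below +NO3- and 684, or 5.16%, below -N), so the 66 genes are the far end of a wider set and no separate class.

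By abundance, 10 genes had an RPKM of 100 or more in both +NO3- and -N (15.2% of the 66, against 9.77% of the eligible genes), and 24 were under 10 in the smaller of both (36.4%, against 22.9%). The 10 abundant genes held 61.9% of the summed RPKM of the 66 in +NO3- + cPTIO, 61.5% in +NO3- and 63.4% in -N. The largest value belonged to Zm00001d038163 (chromosome 6, 150024486 to 150035717), with 72.4 RPKM in +NO3- + cPTIO, against 373 in +NO3- and 491 in -N. Zm00001d019312 (chromosome 7, 27241848 to 27243532) had 46.2, against 379 and 270, and Zm00001d031909 (chromosome 1, 206465399 to 206471722) had 26.3, against 243 and 319. Of these, Zm00001d031909 was the lowest relative to the others, at 10.8% of the smaller value.

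Zm00001d017292 on chromosome 5 had an RPKM of 42.5 in +NO3- + cPTIO, 222 in +NO3- and 201 in -N. Zm00001d023529 and Zm00001d041645, named above, belong to the same group. Zm00001d029859 on chromosome 1 had 30.9, against 159 in +NO3- and 138 in -N, Zm00001d003712 on chromosome 2 had 21.1, against 131 and 123, and Zm00001d050768 on chromosome 4 had 21.0, against 113 and 105. None of the abundant genes reached an RPKM under 10 with the scavenger. Zm00001d015715 (chromosome 5, 111122849 to 111143518) had the longest locus, 20670 bp, and stood at 13.8 in +NO3- + cPTIO, against 76.8 in +NO3- and 78.5 in -N.

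A property that the rule did not use was the length of the locus, which includes introns. The 66 genes had a median locus span of 1644 bp, against 4687 bp over all eligible genes and 3448 bp over the 37 genes at least 4-fold higher with cPTIO. Under 1 kb were 23 of the 66 (34.8%), 1 of the 37 (2.70%) and 471 of the 13255 (3.55%). Under 500 bp were 15 of the 66 (22.7%), 0 of the 37 and 139 of the 13255 (1.05%). At the other end, 11 of the 66 spanned 5000 bp or more (16.7%, against 46.2% of the eligible genes). Genes whose loci overlap share a joined locus, which counts in full for each of them. Of the 8 such genes among the 66, all except Zm00001d042905 (2838 bp) belonged to these 11. With joined loci left out, 39.7% of 58 genes were under 1 kb, against 3.84% of 11944 eligible genes. Short loci therefore made up a larger part of the genes lower with cPTIO than of those higher with it.

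**Figure D3:**
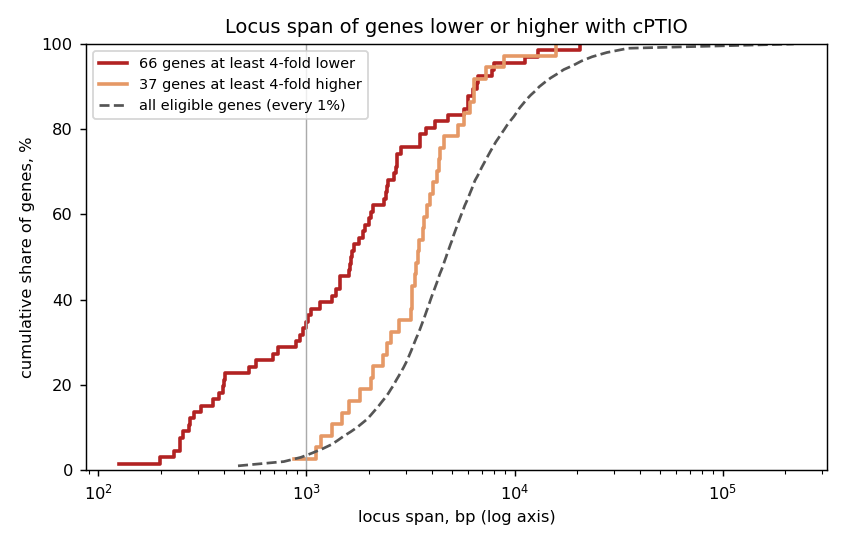
Cumulative share of genes (%) by locus span in bp on a log axis, for the 66 genes at least 4-fold lower and the 37 genes at least 4-fold higher in +NO3- + cPTIO, and for all 13255 eligible genes. At 1000 bp (grey line) the curve of the 66 genes stands at 34.8%, that of the 37 genes at 2.70% and that of the eligible genes at 3.55%.

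On the side of lower values the share of short loci was larger the larger the difference. It was 34.8% in the genes at least 4-fold lower, 17.9% in the 469 genes from 2-fold to 4-fold lower, 8.68% in the 1002 genes from 1.5-fold to 2-fold lower and 2.28% in the 10989 genes within 1.5-fold. On the side of higher values it was 2.36% of 509 genes, 7.10% of 183 genes and 2.70% of 37 genes, in order of increasing difference, with no steady trend. Read the other way round, 4.88% of the 471 eligible genes under 1 kb belonged to the 66, against 0.336% of the 12784 longer ones. The corresponding shares for genes at least 4-fold higher with cPTIO were 0.212% and 0.282%.

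**Figure D4:**
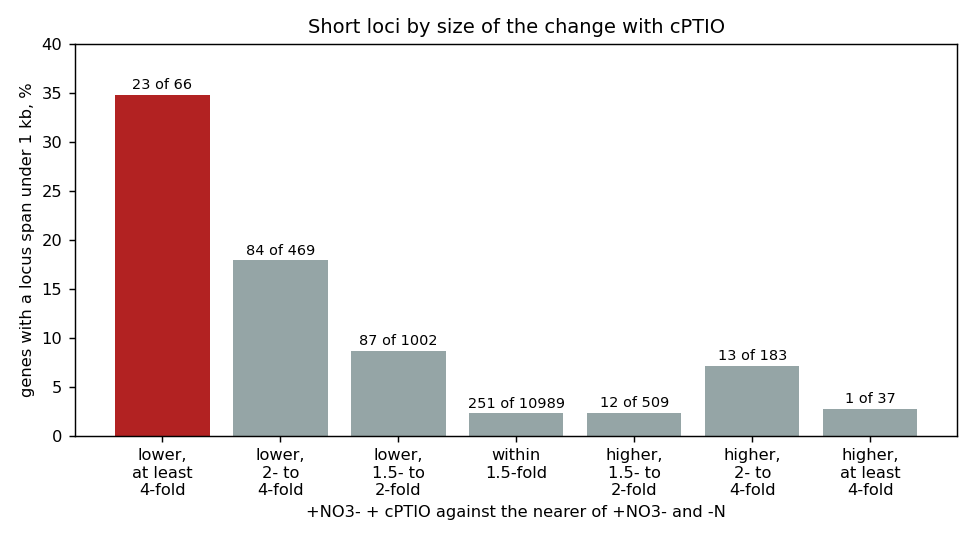
Share of eligible genes with a locus span under 1 kb (%), by how far +NO3- + cPTIO lay from the nearer of +NO3- and -N, with the counts over each bar. The share is 34.8% in the genes at least 4-fold lower, 2.28% in the genes within 1.5-fold and 2.70% in the genes at least 4-fold higher.

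Lower values with the scavenger were also more frequent among the short genes that did not pass the limit than among the longer ones. With the 66 genes left out, the 448 eligible genes under 1 kb had a median log2 ratio of +NO3- + cPTIO to +NO3- of -0.57 and to -N of -0.42, against -0.04 and -0.04 for the 12741 longer genes. At least 2-fold below both other conditions were 84 of these short genes (18.8%) and 385 of the longer ones (3.02%). Over all eligible genes, at least 2-fold above both were 14 short genes (2.97%) and 206 longer ones (1.61%). Between +NO3- and -N the median log2 ratio of the short eligible genes was 0.15, within a window that bounds it. Below 500 bp the medians over all eligible genes were -0.89 against +NO3- and -0.78 against -N, and at 5000 bp or more they were 0.07 and 0.05.

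The shares at the ends of the span range differed at each level of expression. In loci under 500 bp, 14.3% of the eligible genes with 5 to 10 RPKM, 13.6% of those with 10 to 50 RPKM and 7.46% of those with 50 RPKM or more belonged to the 66 (4 of 28, 6 of 44 and 5 of 67 genes). In loci of 5000 bp or more the shares were 0.375%, 0.0265% and 0.491% (5 of 1332, 1 of 3773 and 5 of 1019 genes). Between these ends the share did not decline at every step. At 50 RPKM or more it was 1.33% from 500 bp to under 1000 bp, 1.55% from there to under 2000 bp and 0.235% from there to under 5000 bp. These shares rest on few genes (1 of 75, 4 of 258 and 3 of 1277). Locus span thus moved with the result, and its part in the result was not tested. For the 66 genes, the upper limit of RPM in the smaller of +NO3- and -N had a median of 29.9 and a lowest value of 1.41. Of the 23 genes under 1 kb, 8 stood under 5 RPM and 14 under 10. Whether a value of this kind rests on few reads was not worked out. The methods of the study give a range of reads produced per library, which was not used to turn these limits into reads.

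Lengths that are a multiple of 3 were also counted. A locus whose length is a multiple of 3 can be a single coding sequence without introns or UTRs, although the table does not say which loci are, and the start of a locus was itself read from the frequency of such lengths. Of the 23 genes under 1 kb, 20 had such a length (87.0%), against 70.9% of the 471 eligible genes under 1 kb. Over the whole set, 33 of the 66 genes, 20 of the 37 genes higher with cPTIO (54.1%) and 4849 of the 13255 eligible genes (36.6%) had a length that is a multiple of 3. Among the named genes this holds for both genes listed at 0, with 288 and 126 bp, for Zm00001d018744 with 273 bp, Zm00001d041645 with 255 bp and Zm00001d017508 with 381 bp. The exceptions under 1 kb included the abundant Zm00001d023529, with 997 bp.

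By the rule, the 43 genes of 1 kb or more were also at most 25% of both other values, and their ratios are given as a description. They had a median log2 ratio of +NO3- + cPTIO to +NO3- of -2.63 and to -N of -2.62, while the 21 shorter genes above 0 had -2.86 and -2.96. Over 8-fold lower were 8 of the 43 longer genes, against 11 of the 23 shorter ones, the genes listed at 0 included. With an RPKM of at least 100 in both +NO3- and -N were 6 of the longer genes and 4 of the shorter ones. Among the loci of 1 kb or more, 43 genes were thus at least 4-fold lower and 36 at least 4-fold higher with cPTIO.

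The genes were found on all 10 chromosomes. The counts were 10 on chromosome 4, 9 on chromosome 5, 8 on chromosome 2 and 7 each on chromosomes 1, 7, 8 and 10, with 5 on chromosome 9 and 3 each on chromosomes 3 and 6. As a share of the eligible genes of a chromosome they ran from 0.211% on chromosome 3 to 0.833% on chromosome 10. These shares rest on 3 and 7 genes. Within 100 kb of another of the 66 lay 4 genes, in 2 pairs, of which 1 is a single joined locus, and the same count over other genes was not made.

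The pair on chromosome 5 consisted of Zm00001d017494 (197532011 to 197533798) and Zm00001d017495 (197539628 to 197541548), which lay 5.83 kb apart. Zm00001d017494 had an RPKM of 2.49 in +NO3- + cPTIO, against 15.0 in +NO3- and 12.1 in -N, and Zm00001d017495 had 4.75, against 23.3 and 33.3. They were 4.84-fold and 4.90-fold below the smaller value, which was that of -N for Zm00001d017494 and that of +NO3- for Zm00001d017495. Against a single condition the factors were less alike. The log2 ratios were -2.59 and -2.29 to +NO3-, and -2.27 and -2.81 to -N. Their ratios of +NO3- to -N lay on opposite sides of 1. Zm00001d017508 lay 370 kb beyond Zm00001d017495 on the same chromosome.

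The pair on chromosome 9, Zm00001d047736 and Zm00001d047737, has one locus in the table (140319258 to 140325254). Genes whose loci overlap share a joined locus there, so the span is that of the pair and not of either gene. Zm00001d047737 had 0.805 in +NO3- + cPTIO, against 5.55 in +NO3- and 5.35 in -N, a 6.64-fold difference beside the 20.0-fold difference of Zm00001d047736. Whether these genes share reads cannot be told from the table. Wider apart were Zm00001d030232 and Zm00001d030235 on chromosome 1, at 250 kb, and Zm00001d010575 and Zm00001d010588 on chromosome 8, at 392 kb.

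A joined locus was found for 8 of the 66 genes (12.1%), against 9.89% of the eligible genes. In 2 of these loci the other gene was well expressed and did not share the difference. Zm00001d026371 on chromosome 10 had 0.825 in +NO3- + cPTIO, against 6.38 in +NO3- and 8.12 in -N, while its overlapping gene Zm00001d026370 had 22.7, against 26.8 and 22.3. Zm00001d051529 on chromosome 4 had 1.17, against 6.37 and 7.56, while Zm00001d051528 had 64.3, against 43.0 in +NO3- and 48.0 in -N. The genes that overlap Zm00001d007745, Zm00001d013593 and Zm00001d017292 stood under 4 RPKM in every condition. The labels name a stranded library kit and the methods name one without that word, so reads of genes that overlap in opposite directions cannot be told apart.

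The values of neighbouring genes were not used by the rule. For each of the 66 genes, the nearest eligible gene on either side that was not one of them was taken. This gave 131 pairs with a median gap of 106 kb. The pairs held 125 different neighbour genes, so some neighbours were counted more than once. The neighbours had a median log2 ratio of -0.15 to +NO3- and -0.11 to -N, against -0.04 and -0.05 for the neighbours of all eligible genes, taken in the same way. At least 2-fold below both other conditions were 5 of the 131 (3.82%), against 3.56% for the neighbours of all eligible genes, and at least 2-fold above were 2 (1.53%, against 1.67%). Within 100 kb, 2 of 63 neighbours were at least 2-fold lower (3.17%). Most of the neighbours thus lay close to their values in the other conditions.

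**Figure D5:**
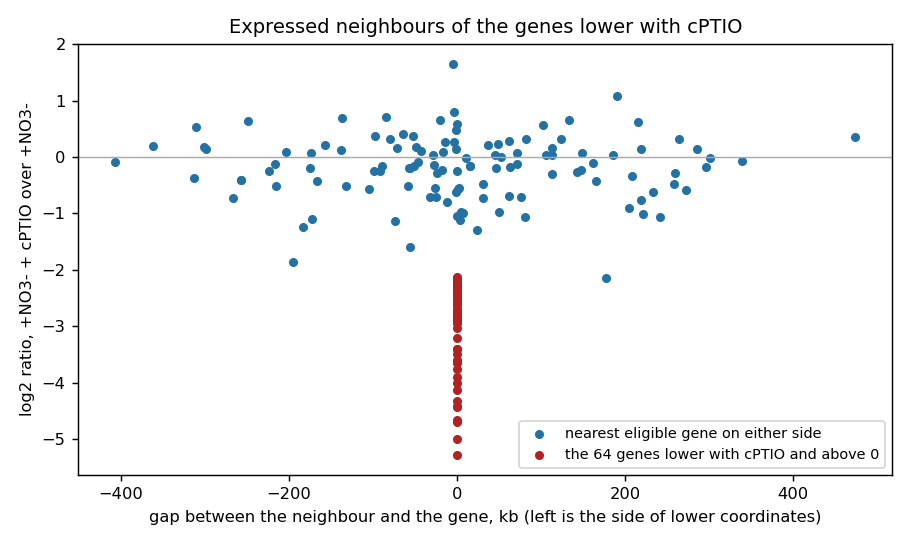
Log2 ratio of +NO3- + cPTIO to +NO3- of the nearest eligible genes on either side of the 66 genes, against the gap in kb, for the 120 pairs within 500 kb. The 64 genes above 0 are drawn at a gap of 0 and lie between -5.29 and -2.12, and the neighbours scatter about 0, with a median of -0.15 over all 131 pairs.

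Within 100 kb, 3 neighbours differed over 2-fold from both other conditions, and 6 more did so from only 1 of them. Zm00001d008287, which lies 4.36 kb from Zm00001d008288, stood at 118 RPKM in +NO3- + cPTIO, against 37.4 in +NO3- and 39.7 in -N, the opposite direction to Zm00001d008288. Zm00001d026163, at 23.4 kb from Zm00001d026162, had a log2 ratio of -1.30 to +NO3- (246 RPKM) and -1.72 to -N (330 RPKM). Zm00001d048703, at 55.6 kb from Zm00001d048705, had 8.23, against 24.9 and 25.7. Zm00001d026163 and Zm00001d048703 were lower with the scavenger like the genes beside them, by a smaller factor. Of the 6 past 2-fold against only 1 condition, Zm00001d040544 was higher, with 12.0, against 7.63 in +NO3- and 5.20 in -N. The others of the 6 were lower with the scavenger.

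Genes taken as markers of root cap and root hairs, cell types of the sampled tip, were above 0 in each condition. None of them was eligible, since each changed with nitrate beyond the window or lay under the minimum. The 3 root cap genes (a root cap-specific protein, bearskin 2 and SOMBRERO) summed to an RPKM of 28.9 in +NO3- + cPTIO, 11.0 in +NO3- and 47.7 in -N. The root cap-specific protein carried most of this sum, with 23.0, 6.04 and 44.7. Bearskin 2 ran the same way at a lower level, with 1.19, 0.207 and 1.77, while SOMBRERO had 4.65, 4.77 and 1.17. The 3 root hair genes (roothairless6, root hair defective 3 homolog 2 and scar2) summed to 2.70, 3.53 and 9.20. Of these, roothairless6, which is needed for root hair growth in maize, was at 0.170 in +NO3- + cPTIO, 2.39 in +NO3- and 7.90 in -N. Root hair defective 3 homolog 2 ran the other way, with 1.98, 0.698 and 0.259, and scar2 had 0.548, 0.436 and 1.04. The genes taken for a cell type thus had no common direction. For the root cap this rests on SOMBRERO alone, which was at most 4.77 RPKM. For root hairs this rests on root hair defective 3 homolog 2 and scar2, which were at most 1.98 RPKM. The paper lists roothairless6 and scar2 under root organogenesis and differential growth of the root. Whether each gene marks a single cell type was not tested. The part of cell type shares in the levels of the 66 genes was not tested.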

How the data were processed

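Libraries of maize root apices in 3 conditions were sequenced by the authors, trimmed with Trimmomatic 0.33, mapped to AGPv4 with TopHat2 2.0.13 and quantified with Cuffdiff of Cufflinks 2.2.1, using quartile normalization and multi-read correction. Per the deposited table, values are RPKM from the authors, a single pooled figure for each condition. Cufflinks divides by an effective length that takes account of fragment length, which weighs most on short transcripts, and the fragment length is not given in the sources used here. Each column was matched to a condition by its name. With 1 value per condition no test was made, and the depth per library is not in the table.

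Ratios were taken without a pseudocount (Python 3.11.15, pandas 2.3.3). The rule leaves out 3 identifiers, none of which passes it. Starts in the table count from 0: in loci of up to 500 bp, end minus start was a multiple of 3 for 56.6% of genes, and 1 more than that for 16.1%. Starts are printed 1 higher. The members and lists were chosen with earlier results of these data known. Named are the genes listed at 0, the 15 lowest shares above 0, the 10 highest smaller values, genes within 100 kb of another, the 5 on each side of the limit, and neighbours within 100 kb that differed over 2-fold from both other conditions. Other genes named (Zm00001d040544, Zm00001d040545, Zm00001d053445, Zm00001d015715, Zm00001d030232, Zm00001d030235, Zm00001d010575 and genes in joined loci) were chosen after their values were seen. The counting steps were tested on simulated data, with 8-fold changes planted in well expressed genes and little noise. Genes near the 4-fold limit or near 0 were not covered by that test. Alternatives changed the minimum, the window, the limit, the pseudocount, the scaling and the identifiers. No identifier was annotated, so function groups, proteins and promoters were not analysed here.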

Additional observations from a re-analysis of the deposited data

How the results depend on the processing

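No paired analysis was possible because the table holds 1 pooled value per condition, and for the same reason no library could be left out. The 66 genes became 170 at a minimum of 1 RPKM (0.989% of 17190 eligible genes) and 122 at 2 (0.770% of 15847). They became 42 at 10 (0.411% of 10215) and 691 with none (3.38% of 20464). Of these, 66, 66, 42 and 66 were among the 66. Of the same eligible genes, those higher with cPTIO numbered 83, 57, 23 and 224 under these minimums, against 37. Those that stood apart in +NO3- or -N, in either direction, numbered 44, 24, 7 and 628, against 15. The eligible genes behind these last counts were not tallied for each minimum. Without a minimum, 628 genes for +NO3- and -N, with both conditions and both directions added up, thus stood beside 691 lower and 224 higher with cPTIO. A limit of 2-fold gave 535 lower (4.04% of 13255), 220 higher and 134 for +NO3- or -N. A limit of 8-fold gave 19 (0.143% of 13255), 8 and 5. A narrower window (a ratio no lower than 0.8) left 42 of the genes (0.383% of 10961 eligible genes). A pseudocount of 1 moved the share of the smaller value over 1.5-fold, or away from 0, for 28 single genes, left 44 of the 66 and gave 9 genes for +NO3- or -N, and with all identifiers 31 genes stood apart in +NO3- or -N. Rescaling to the same median ratio kept 65 of the 66, and rescaling to the same upper quartile kept 66. The share of loci under 1 kb was 20.0% at a 2-fold limit and 57.9% at 8-fold, and from 29.4% to 41.3% under the other alternatives that kept short loci. Leaving out loci under 1 kb, chosen after seeing the data, left 43 genes. With neighbours of at least 1 RPKM, 6.82% were at least 2-fold lower, against 3.82%, while the neighbours of all eligible genes gave 5.11%. The median log2 ratios and the count of genes close to another moved under none of their alternatives.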

Other observations

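Genes outside the Zm00001d series were not part of the report. Of such genes within the same window and minimum, 9 (8.91%) were at most 25% of both other values in +NO3- + cPTIO, 8 of these 9 were listed at 0, and 0 were at least 4 times both. Of the 9, 8 had a locus under 1 kb and 8 had ENSRNA identifiers. The highest was ENSRNA049456692 on chromosome 5, listed at 0 in +NO3- + cPTIO, against 43.0 RPKM in +NO3- and 47.1 in -N, with a locus of 86 bp. ENSRNA049461634 and ENSRNA049461732, which lie close to each other on chromosome 5, were listed at 0 in +NO3- + cPTIO, against 28.9 and 12.5 in +NO3- and 27.4 and 9.20 in -N. The microRNA precursor zma-MIR160d was listed at 0 in +NO3- + cPTIO, against 6.54 in +NO3- and 9.50 in -N. A value of 0 in these short loci is a listed 0 and no measured absence.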
